A study of Penicillium citrinum with 6 samples.

Results

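Cytochrome P450 enzymes of the mould *Penicillium citrinum* were followed on an agar medium and on tobacco leaves. A gene was counted when its product name in the deposited tables holds "P450" and does not hold reductase, eburicol, lanosterol or sterol. The term P450 occurs in 74 names, 6 of these name a reductase, and the remaining 68 genes, of 9385 in all, make up the set. No name that holds P450 also holds a sterol term, and 1 member, PCI_1086, carries the name of the sterol demethylase family, cytochrome P450 51. The series measured total RNA of wild-type mycelium by RNA sequencing in 6 libraries, 2 per group. CK2D was mycelium from Czapek-Dox plates, a defined agar medium of sucrose and nitrate, harvested at day 2 after inoculation with conidia. TL2D and TL3D were mycelium from inoculated tobacco leaves (the labels describe them as "flured"), harvested at day 2 and day 3. All groups were kept at 25 °C and all are wild type. The sample codes were matched to plates and leaves through the sampling days in the growth description.

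P450 enzymes are haem proteins that insert an oxygen atom from molecular oxygen into a substrate, using electrons passed on by a partner reductase. Most filamentous fungi hold many P450 genes. A few act in the synthesis of ergosterol, the main fungal sterol, while others hydroxylate fatty acids and alkanes, modify natural products such as mycotoxins, or act on plant compounds. Most members here are named after the closest known enzyme of another fungus, often one from a biosynthetic gene cluster. Such a name is a label and does not show that *P. citrinum* makes the named product. The 68 members carry 50 distinct names, and 32 of them share their name with at least 1 other member.

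Values are FPKM, fragment numbers adjusted for gene length and library size, so levels can be compared between genes. FPKM totals were 582600 to 614206 per library. The number of reads is unknown, so counting intervals cannot be given, and whether the replicates were grown as separate cultures is not stated in the labels. The p-values therefore measure only the spread between these samples, which may be technical. The TL2D replicates lay further apart than those of the other groups: 493 of 8026 genes with a group mean of at least 1 FPKM differed at least 2-fold in FPKM between them, against 73 of 8096 in CK2D and 32 of 8219 in TL3D. Of the P450 members with such a mean, none differed that much in TL2D or TL3D, and 2 of 43 did in CK2D (PCI_0885 and PCI_5053). A list of 6 genes, found by name terms for asexual spore formation, served as markers of spore-forming structures. It includes PCI_2339, an interferon-related developmental regulator that is not named for spores and had 33.8 to 42.6 FPKM. None of the 6 was listed at 0 in any library. Their summed level was 859 and 761 FPKM in CK2D, 377 and 281 in TL2D, and 482 and 584 in TL3D, and 3 of the 6 were lower in TL2D than in CK2D (*brlA*, *abaA* and *wetA*), while *flbA* PCI_0977 was 1.44-fold higher. The calls of *brlA* PCI_2178, *abaA* PCI_1856 and *flbA* were lost without either CK2D replicate (adjusted p up to 0.140). The part of spore formation in the P450 results was not tested. No product name was that of a plant photosynthesis gene. In RNA from whole mycelium, fewer cells of a type and less RNA per cell cannot be told apart.

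The members of the set together took up a similar share of the transcriptome on both substrates, highest in TL2D. They summed to 1033 and 1168 FPKM in CK2D, 1217 and 1166 in TL2D, and 1072 and 1059.6 in TL3D, which is between 0.172% and 0.208% of each library's total. The groups did not separate cleanly on the summed FPKM, since the second CK2D library lay above both TL3D libraries and, narrowly, the second TL2D library. As a share of the library total, both TL2D libraries lay above all CK2D and TL3D libraries. The highest of those was the second CK2D library, at 0.192%. CK2D and TL3D overlapped on the share, and no difference in it was tested. The name rule keeps the sterol demethylases, and the genes that fuse a P450 to its reductase, out of the sum and the share. Of these, PCI_1876, PCI_6001 and PCI_7309 were higher in every leaf library than on plates. PCI_8375 was lower and PCI_0831 overlapped, so the sum does not stand for all P450 enzymes. The makeup behind the sum was uneven: the 5 most abundant members held 48.6% to 55.2% of it in each library, and 12 to 17 members per library reached 20 FPKM. Between 42 and 49 members reached 1 FPKM. Taken by group means, 30 members were highest in CK2D, 14 in TL2D and 24 in TL3D. At the bottom, 17 members stayed under a mean of 1 FPKM in every group.

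**Figure D1:**
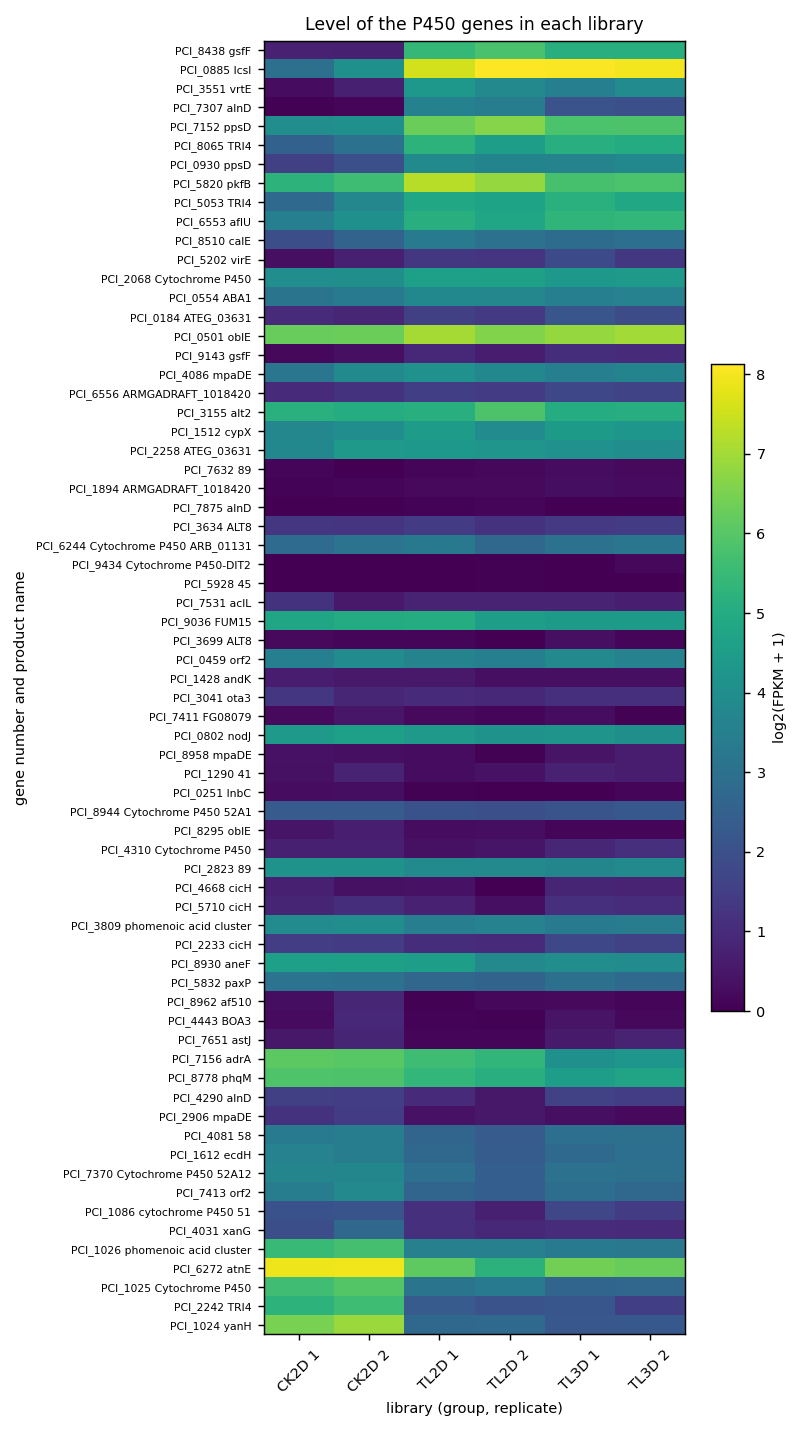
Level of each of the 68 P450 genes (rows, ordered by the difference between TL2D and CK2D) in the 6 libraries (columns), coloured by log2(FPKM + 1). Genes at the top were high on leaves, genes at the bottom were high on plates, and most rows in the middle were dark, with little signal in any library.

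On leaves at day 2, members of the set both rose and fell. Of 47 tested members, 14 were higher and 17 lower in TL2D than in CK2D, and 16 were not called. A gene was tested if 2 or more of the 4 libraries compared gave it 1 FPKM or more, on log2(FPKM + 1) with limma, and called at an adjusted p under 0.05. Calls were common among all genes too: 54.2% of 8286 tested genes were called, 24.8% as higher and 29.4% as lower, against 66.0%, 29.8% and 36.2% of the tested members. The median change of the tested members was −0.11 on the log2 scale, beside −0.10 for all tested genes. The number of calls fell when a plate library was left out. Such a fit took its spread from the TL2D pair alone, the group with the widest replicates. A day 2 call given as lost without a CK2D replicate therefore does not show that it rested on the plate values. Without CK2D replicate 1, 7 members were called higher and 5 lower, and without CK2D replicate 2, 10 and 4.

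The largest fitted rise belonged to PCI_8438, named *gsfF* after a P450 of griseofulvin synthesis in *Penicillium aethiopicum*. Its level was 0.667 and 0.651 FPKM in CK2D, 41.1 and 55.0 in TL2D, and 34.1 and 33.5 in TL3D. It was low on plates and well expressed in all 4 leaf libraries, with no overlap. Its mean was 73.0-fold higher in TL2D than in CK2D, a change of 4.87 ± 0.18 (SE) on the log2(FPKM + 1) scale (limma, adjusted p = 0.000372), and 51.3-fold higher in TL3D than in CK2D (adjusted p = 1.93e-07). From day 2 to day 3 its log2 change was −0.48 ± 0.16 with an adjusted p of 0.133. A further gene with the name *gsfF*, PCI_9143, ranged from 0.119 to 1.10 FPKM and was not tested.

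The most abundant P450 on leaves was PCI_0885, named *lcsI* after an enzyme of leucinostatin synthesis in *Purpureocillium*. It stood at 6.93 and 15.9 FPKM in CK2D, 189 and 278 in TL2D, and 269 and 251 in TL3D. The leaf groups overlapped each other and lay far above the plates. The mean was 20.4-fold higher in TL2D than in CK2D (log2 change 4.31 ± 0.42, adjusted p = 0.00282), and 33.7-fold higher without CK2D replicate 2, the higher of the plate libraries. At day 3 it was 22.7-fold above the plates, or 37.5-fold without that library.

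The genes *vrtE* and *alnD* were almost silent on plates and also rose on leaves. PCI_3551, named *vrtE* after viridicatumtoxin synthesis in *P. aethiopicum*, had 0.216 and 0.659 FPKM in CK2D, 19.1 and 13.3 in TL2D, and 10.3 and 14.2 in TL3D. Every leaf library was above both plate libraries, while days 2 and 3 overlapped. Its rise at day 2 was 3.58 ± 0.26 on the log2 scale (adjusted p = 0.0015), and the 37.0-fold ratio of means became 24.6 without CK2D replicate 1 and 75.0 without CK2D replicate 2. For TL3D against CK2D the ratio was 28.0, or 18.6 and 56.8 without these libraries. PCI_7307, named *alnD* after asperlin synthesis in *Aspergillus nidulans*, had 0.0401 and 0.0924 FPKM in CK2D, 10.8 and 9.93 in TL2D, and 3.22 and 3.00 in TL3D. It was on at day 2, lower but still on at day 3, and the 3 groups did not overlap. Its log2 change was 3.41 ± 0.15 at day 2 (adjusted p = 0.000515), and its ratio of means was 156 in TL2D and 46.9 in TL3D against CK2D. Without CK2D replicate 2 these ratios were 258 and 77.4, since the plate values were so low.

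The genes PCI_7152 and PCI_0930 share the name *ppsD* and both rose on leaves. PCI_7152 had 14.9 and 15.9 FPKM in CK2D, 78.6 and 100.2 in TL2D, and 56.0 and 57.5 in TL3D. PCI_0930 was the weaker of the pair, at 1.94 and 2.99, then 13.9 and 11.7, then 11.4 and 12.9. Neither overlapped between plates and leaves. The day 2 rises were 5.81-fold (log2 change 2.45 ± 0.15, adjusted p = 0.00113) and 5.19-fold (2.00 ± 0.21, adjusted p = 0.00331).

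Both rising members named *TRI4*, after a P450 of trichothecene synthesis in *Fusarium*, were already on in plates. PCI_8065 went from 4.69 and 7.39 FPKM in CK2D to 37.0 and 21.8 in TL2D and 33.6 and 31.3 in TL3D. PCI_5053 went from 5.91 and 12.4 to 28.4 and 25.4, and then 34.9 and 28.0. For both genes all leaf libraries were above all plate libraries, and days 2 and 3 overlapped. The day 2 log2 changes were 2.09 ± 0.33 (4.86-fold, adjusted p = 0.00842) and 1.53 ± 0.34 (2.93-fold, adjusted p = 0.0202). Without CK2D replicate 1 the adjusted p values were 0.0659 and 0.0510, and without CK2D replicate 2 the ratio of PCI_5053 was 4.55 at day 2 and 5.32, instead of 3.43, at day 3. PCI_6553, named *aflU* after an aflatoxin cluster P450, behaved alike: 10.4 and 15.8 FPKM in CK2D, 32.9 and 27.2 in TL2D, 38.9 and 40.6 in TL3D. Its groups did not overlap, and it was 2.29-fold higher at day 2 (log2 change 1.16 ± 0.23, adjusted p = 0.0146) and 3.03-fold at day 3 (adjusted p = 0.000269), with an adjusted p of 0.0718 at day 2 without CK2D replicate 1.

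PCI_5820, named *pkfB* after aspernidine synthesis in *A. nidulans*, peaked at day 2. It had 37.2 and 47.1 FPKM in CK2D, 151 and 113 in TL2D, and 53.0 and 55.6 in TL3D. Both day 2 leaf libraries stood above all others, and day 3 stood just above the plates. The rise at day 2 was 3.13-fold (log2 change 1.62 ± 0.20, adjusted p = 0.00477). At day 3 it was 1.29-fold above CK2D (adjusted p = 0.0355), a call lost without CK2D replicate 1 or either TL3D replicate (highest adjusted p = 0.210) and in a fit over all 6 libraries (adjusted p = 0.132).

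The other 4 members called higher at day 2 changed less. PCI_2068, named only cytochrome P450, had 14.9 and 15.5 FPKM in CK2D, 23.0 and 23.5 in TL2D, and 19.0 and 20.1 in TL3D (1.53-fold at day 2, adjusted p = 0.0109). PCI_0554, named *ABA1* after abscisic acid synthesis in *Botrytis*, was 1.52-fold higher (adjusted p = 0.0253). PCI_8510, named *calE* after calbistrin synthesis, was 2.07-fold higher (adjusted p = 0.0416), and PCI_5202, named *virE*, rose 3.12-fold from under 1 FPKM on plates (adjusted p = 0.0372). All of these 4 calls were lost without CK2D replicate 1 and without CK2D replicate 2, with adjusted p values up to 0.173. The calls of PCI_8510 and PCI_5202 were also lost without TL2D replicate 1, and that of PCI_5202 without TL2D replicate 2, while its ratio rose to 5.49 without CK2D replicate 2.

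**Figure D2:**
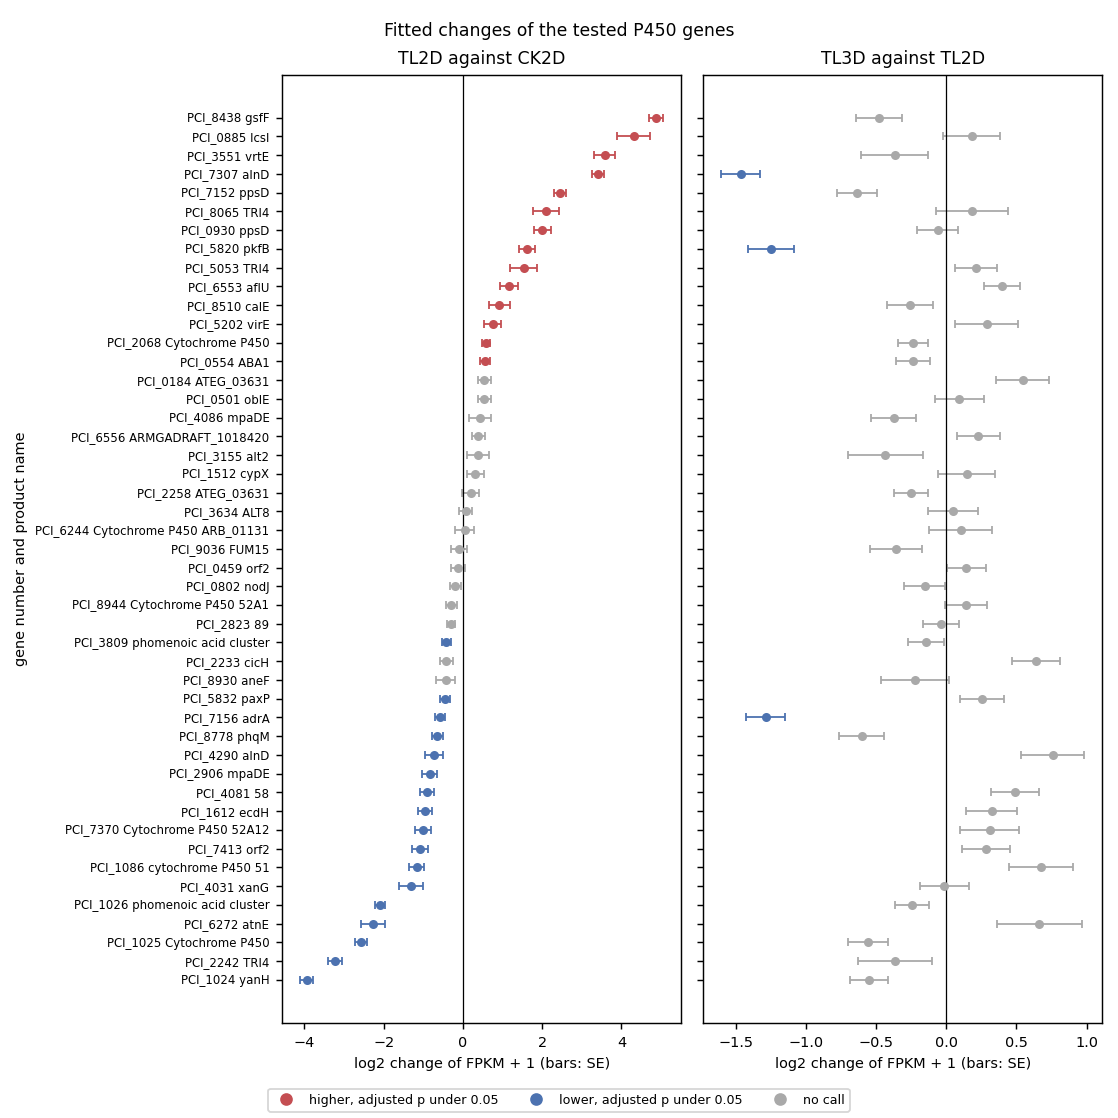
Fitted log2 change of FPKM + 1 (horizontal axis, bars are SE) for the 47 P450 genes tested between TL2D and CK2D (left), and for the same genes between TL3D and TL2D where tested (right, on a narrower scale). On the left 14 genes were called higher (red) and 17 lower (blue), and on the right 3 were called lower and none higher.

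Among the members that were lower on leaves, a run of 3 genes with consecutive numbers stood out by size. PCI_1024, named *yanH* after yanuthone synthesis in *Aspergillus niger*, had 88.9 and 119 FPKM in CK2D, 5.70 and 5.82 in TL2D, and 3.57 and 3.67 in TL3D. PCI_1025, named only cytochrome P450, had 49.1 and 61.2, then 7.78 and 9.07, then 5.35 and 5.39. PCI_1026, named after a phomenoic acid cluster P450 of *Leptosphaeria maculans*, had 44.4 and 52.2, then 10.6 and 10.6, then 8.99 and 8.55. In each of the 3 genes the groups did not overlap and the order was CK2D, TL2D, TL3D from high to low. At day 2 they were 18.0-fold, 6.55-fold and 4.57-fold lower than on plates, with log2 changes of −3.94 ± 0.17, −2.57 ± 0.16 and −2.09 ± 0.12 (adjusted p = 0.000474, 0.00116 and 0.00107). At day 3 the ratios were 28.7, 10.3 and 5.51. These calls remained without each single library.

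The member highest on plates was PCI_6272, named *atnE* after aspercryptin synthesis in *A. nidulans*. It had 244 and 245 FPKM in CK2D, 67.6 and 36.2 in TL2D, and 83.8 and 74.3 in TL3D. Plates were high in both replicates, and the leaf libraries were lower, with the second TL2D library lowest. It was 4.71-fold lower at day 2 (log2 change −2.28 ± 0.30, adjusted p = 0.0058) and 3.09-fold lower at day 3 (adjusted p = 8.31e-06). The day 2 call was lost without either CK2D replicate (highest adjusted p = 0.0576). Its change from day 2 to day 3 was 0.66 ± 0.30 (adjusted p = 0.219), or 1.10 without TL2D replicate 1, the higher of the TL2D libraries.

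PCI_2242, the third member named *TRI4*, moved opposite to its namesakes. It had 37.3 and 47.6 FPKM in CK2D, 4.04 and 3.22 in TL2D, and 3.47 and 1.87 in TL3D. The leaf groups overlapped each other and lay far below both plate libraries. It was 11.7-fold lower at day 2 (log2 change −3.23 ± 0.18, adjusted p = 0.000983) and 15.9-fold lower at day 3 (adjusted p = 1.21e-05).

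A pair of well-expressed members was lower on leaves at both days. PCI_7156, named *adrA* after andrastin synthesis in *Penicillium chrysogenum*, had 66.0 and 63.9 FPKM in CK2D, 47.1 and 39.4 in TL2D, and 16.0 and 18.1 in TL3D. PCI_8778, named *phqM* after paraherquamide synthesis in *Penicillium fellutanum*, had 58.6 and 57.1, then 40.6 and 33.1, then 21.8 and 25.9. The groups did not overlap in either gene. At day 2 *adrA* was 1.50-fold lower than on plates (log2 change −0.58 ± 0.12, adjusted p = 0.0167) and *phqM* 1.57-fold lower (−0.64 ± 0.13, adjusted p = 0.0154). Both calls were lost without either CK2D replicate (highest adjusted p = 0.118 and 0.110). At day 3 they were 3.81-fold (adjusted p = 6.38e-06) and 2.43-fold (adjusted p = 7.57e-05) below plates. Between the leaf days *adrA* fell, as given below, and *phqM* was not called (log2 change −0.61 ± 0.16, adjusted p = 0.0779).

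The other 10 members called lower at day 2 had at most 14.8 FPKM in any library. PCI_1086, cytochrome P450 51, had 3.13 and 3.31 FPKM in CK2D, 1.14 and 0.638 in TL2D, and 2.35 and 1.67 in TL3D (3.62-fold lower at day 2, adjusted p = 0.0102). PCI_7370, cytochrome P450 52A12, had 12.0 and 12.2, 6.82 and 4.42, and 7.13 and 6.99 (2.15-fold lower, adjusted p = 0.0174). P450 enzymes of the 52A type hydroxylate alkanes and fatty acids in *Candida* yeasts. A further 52A-type gene, PCI_8944 (52A1), had 2.98 to 3.99 FPKM in all libraries, with a log2 change of −0.29 ± 0.14 (adjusted p = 0.131). PCI_4031, named *xanG* after xanthocillin synthesis, was 4.03-fold lower (adjusted p = 0.0232), and PCI_2906, named *mpaDE* after the mycophenolic acid enzyme of *Penicillium brevicompactum*, 3.90-fold lower (adjusted p = 0.0197). PCI_7413 (*orf2*), PCI_1612 (*ecdH*, echinocandin) and PCI_4081 (58) were between 2.04-fold and 2.37-fold lower. PCI_4290 (*alnD*), PCI_5832 (*paxP*, paxilline of *Penicillium paxilli*) and PCI_3809 (phomenoic acid cluster) were 2.52-fold, 1.43-fold and 1.37-fold lower, with adjusted p values of 0.0472, 0.0380 and 0.0374. All of these 10 calls were lost without at least 1 library: without CK2D replicate 2 for PCI_4031, and without either CK2D replicate for the other 9, with adjusted p values up to 0.228. The calls of PCI_4290 and PCI_5832 were also lost without TL2D replicate 2 and that of PCI_3809 without TL2D replicate 1, and the ratio of PCI_4290 was 4.14 without TL2D replicate 1.

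**Figure D3:**
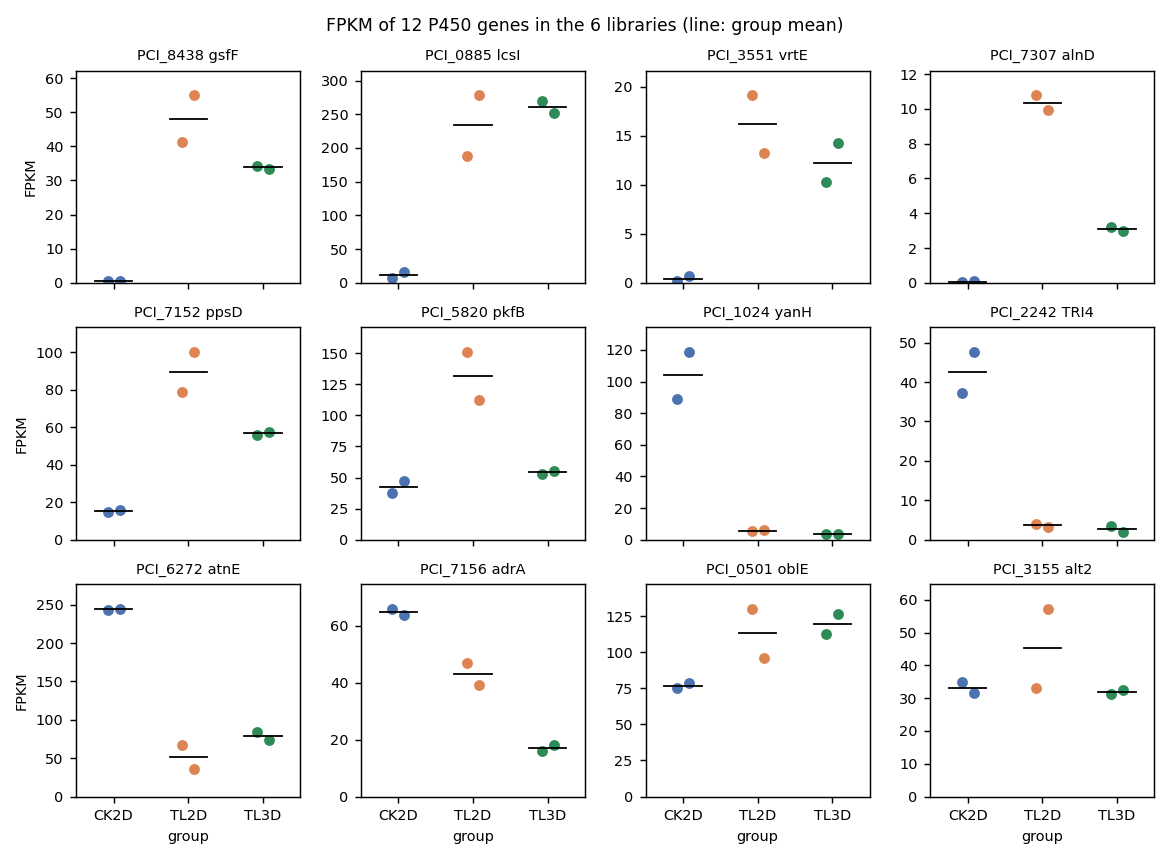
FPKM (vertical axis, starting at 0, a scale of its own in each panel) of 12 P450 genes in the 6 libraries, with points for replicates and lines for group means of 2. The genes of the first 5 panels, *pkfB* and *oblE* were higher in both TL2D libraries than in both CK2D libraries, *yanH*, *TRI4* PCI_2242, *atnE* and *adrA* were lower, and *alt2* overlapped.

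From day 2 to day 3 on leaves few members changed beyond the spread. Of 48 tested, 3 were lower in TL3D than in TL2D, 0 were higher and 45 were not called. In limma, 10.1% of 8222 tested genes were called, 6.77% as higher and 3.30% as lower, so the members' 6.25% lay near the background. At an unadjusted p under 0.05, 6 members were higher and 8 lower. By the FDR of the authors' deposited table, 3 of the tested members were higher (PCI_2233, PCI_4290 and PCI_6553) and 7 lower. The untested *astJ* PCI_7651 was higher there as well, 5.66-fold. The 3 that fell in limma were *alnD* PCI_7307, with a log2 change of −1.47 ± 0.14 (3.33-fold, adjusted p = 0.016), *adrA* PCI_7156, with a change of −1.29 ± 0.14 (2.53-fold, adjusted p = 0.0187), and *pkfB* PCI_5820, with −1.25 ± 0.16 (2.43-fold, adjusted p = 0.0232). All 3 calls were lost without TL3D replicate 1 and without TL3D replicate 2, with adjusted p values up to 0.300. Without a TL2D library more members were called. A fit without a TL3D library took its spread from the TL2D pair alone, and a fit without a TL2D library from the closer TL3D pair. Calls lost or gained in these fits therefore do not show how many members changed.

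Day 3 leaves were also set against day 2 plates, a comparison in which substrate and time cannot be told apart and which shares its libraries with the others. Of 49 tested members, 17 were higher and 19 lower in TL3D than in CK2D, or 73.5%, where 58.3% of 8356 tested genes were called (28.1% higher and 30.2% lower). The median member change was 0.02, beside −0.04 for all tested genes. Without TL3D replicate 1, 11 members were called higher and 16 lower.

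Between TL3D and CK2D alone, 4 members were called higher and 4 lower. PCI_0501, named *oblE* after ophiobolin synthesis, had 75.1 and 78.7 FPKM in CK2D, 130.2 and 95.9 in TL2D, and 112 and 127 in TL3D. All leaf libraries were above the plates and the leaf groups overlapped. It was 1.55-fold higher in TL3D than in CK2D (log2 change 0.63 ± 0.09, adjusted p = 0.00106). In TL2D its change was 0.53 ± 0.17 with an adjusted p of 0.0510 and it was not called. It was called there under both scalings, in the fit over all 6 libraries and by the authors' deposited FDR (0.000572). PCI_8930 (*aneF*, aculene synthesis) had 23.2 and 23.8 FPKM in CK2D, 21.9 and 13.3 in TL2D, and 14.7 and 14.3 in TL3D, and was 1.62-fold lower at day 3 (adjusted p = 0.00091). PCI_9036 (*FUM15*, fumonisin cluster of *Fusarium*) had 26.7 and 31.2, 31.8 and 22.4, and 20.8 and 20.5 (1.40-fold lower at day 3, adjusted p = 0.0078). PCI_0802 (*nodJ*, nodulisporic acid) had 19.7 and 23.0, 20.2 and 16.9, and 17.6 and 15.5 (1.29-fold lower, adjusted p = 0.0373). In *FUM15* and *nodJ* the day 2 groups overlapped, and only day 3 was below both plate libraries. The call of *nodJ* was lost without CK2D replicate 2 or either TL3D replicate (highest adjusted p = 0.194), and both *nodJ* and *FUM15* lost theirs in the fit over all 6 libraries (adjusted p = 0.0867 and 0.0741).

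The other 4 of these 8 were PCI_0184 (ATEG_03631, 3.39-fold higher, adjusted p = 0.00138), PCI_1512 (*cypX*, aflatoxin cluster, 1.40-fold higher, adjusted p = 0.0146), PCI_6556 (ARMGADRAFT_1018420, 1.99-fold higher, adjusted p = 0.0136) and PCI_2823 (89, 1.29-fold lower, adjusted p = 0.0258). PCI_1512 had 12.6 to 20.9 FPKM and PCI_2823 had 12.3 to 17.1, while PCI_0184 and PCI_6556 stayed at or below 3.47. The call of PCI_1512 was lost without CK2D replicate 1 or TL3D replicate 1 and in the fit over all 6 libraries, that of PCI_6556 without TL3D replicate 1, and that of PCI_2823 without either CK2D replicate or TL3D replicate 1, with adjusted p values up to 0.129.

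Over the 3 comparisons together, 39 members were called at least once. The commonest sequence was lower at day 2, not called between the leaf days, and lower at day 3 against plates, in 13 members, and its mirror image, higher at day 2 and at day 3, came next with 11. A rise at day 2 followed by a called fall was seen in *pkfB* and *alnD* PCI_7307, and a fall at each step in *adrA*. *ABA1* was called higher at day 2 and not at day 3, where its adjusted p was 0.063. PCI_4290 and PCI_5832 were called lower at day 2 only, with adjusted p values of 0.91 and 0.233 for TL3D against CK2D. In the authors' deposited table, which marks a gene as significant by its FDR and log2 change, 13 members were marked higher and 16 lower between TL2D and CK2D, and 3 and 3 between TL3D and TL2D.

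Another 8 members were tested in all 3 comparisons and called in none. The most abundant, PCI_3155, named *alt2*, had 34.9 and 31.5 FPKM in CK2D, 33.0 and 57.2 in TL2D, and 31.4 and 32.5 in TL3D. One TL2D library was high and the other 5 libraries lay close together. Without TL2D replicate 1, which leaves the high library, its log2 change from CK2D was 0.77, against 0.38 ± 0.28 with both (adjusted p = 0.29). PCI_2258 (ATEG_03631) had 13.0 to 19.8 FPKM, PCI_0459 (*orf2*) 10.3 to 14.0, PCI_4086 (*mpaDE*) 8.14 to 16.4 and PCI_6244 (ARB_01131) 5.61 to 8.74. PCI_3634 (*ALT8*), PCI_2233 (*cicH*, cichorine synthesis) and PCI_8944 had at most 3.99 FPKM in any library. PCI_3041 (*ota3*, ochratoxin synthesis) and PCI_5710 (*cicH*) passed the filter only in the comparisons with TL3D and were not called.

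The filter left 19 members out of every comparison, and the highest value any of them reached in a library was 1.30 FPKM. They carry the names *lnbC*, 41, *andK* (anditomin), ARMGADRAFT_1018420, *ALT8*, cytochrome P450 (PCI_4310), *BOA3* (botcinic acid of *Botrytis*), *cicH* (PCI_4668), 45, FG08079, *aclL* (aspirochlorine), 89 (PCI_7632), *astJ*, *alnD* (PCI_7875), *oblE* (PCI_8295), *mpaDE* (PCI_8958), *af510* (fumagillin), *gsfF* (PCI_9143) and *DIT2*. *DIT2* of baker's yeast makes the dityrosine of the spore wall, and PCI_9434 with that name was listed at 0 in 3 libraries, with at most 0.124 FPKM in the others. Across the set, 4 members were listed at 0 in at least 1 library. Of these 19, 4 were marked as significant in the authors' deposited table: *gsfF* PCI_9143 as higher in TL2D than in CK2D, and *lnbC* PCI_0251, *BOA3* PCI_4443 and *astJ* PCI_7651 as lower. *astJ* had 0.443 and 0.788 FPKM in CK2D, 0.106 and 0.111 in TL2D, and 0.516 and 0.708 in TL3D. Both TL2D libraries lay below all others, and the authors' deposited table gives it an FDR of 9.27e-05 for TL2D against CK2D and of 5.67e-06 for TL3D against TL2D.

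Members that share a name did not always move together. Of 14 names carried by more than 1 member, 7 had at least 2 tested members between TL2D and CK2D, and under 2 of these names, *TRI4* and *alnD*, members went in opposite directions. The *TRI4* genes PCI_8065 and PCI_5053 rose and PCI_2242 fell, as given above. For *alnD*, PCI_7307 rose and PCI_4290 fell from 1.88 and 1.81 FPKM in CK2D to 1.02 and 0.445 in TL2D, with 2.01 and 1.77 in TL3D, while PCI_7875 stayed at or below 0.0926 FPKM. With a pseudocount of 0.1 the adjusted p of PCI_4290 was 0.0624. Both *ppsD* genes rose and both phomenoic acid cluster genes fell, although by 4.57-fold in PCI_1026 and 1.37-fold in PCI_3809.

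The replicates of the P450 set leaned to one side within groups. Of 43 members with a mean of at least 1 FPKM in CK2D, 33 were higher in replicate 2 (76.7%, beside 56.4% of all such genes). In TL2D, 9 of 44 were higher in replicate 2 (20.5%, beside 40.6%), and in TL3D 24 of 50 (48.0%, beside 52.5%). The median absolute difference between replicates on log2(FPKM + 1) was 0.217, 0.251 and 0.118 for members in CK2D, TL2D and TL3D, and 0.113, 0.180 and 0.118 for all genes. The part of this lean in the calls was not tested beyond leaving out each library.

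Genes found by name as possible electron donors to P450 enzymes were called higher on leaves more often than lower. Which of them serve P450 enzymes in this fungus was not tested. The list holds 17 genes: reductases that pass electrons from NADPH, fused enzymes that carry a P450 and its reductase in one chain, cytochrome b5 with its reductases, and the mitochondrial adrenodoxin system. Of 16 tested, 8 were higher and 1 lower in TL2D than in CK2D, with a median log2 change of 0.50 beside −0.10 for all genes. These are 50.0% and 6.25% of the list, beside 24.8% and 29.4% of all tested genes. Between TL3D and TL2D limma called 0 higher and 1 lower of 16, beside 6.77% and 3.30% of all tested genes. The list's counts there were 0 and 5 at an unadjusted p under 0.05, and 0 and 2 by the authors' deposited FDR. Between TL3D and CK2D, 7 were higher and 1 lower of 15 (46.7% and 6.67%), beside 28.1% and 30.2% of all tested genes.

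The main NADPH-cytochrome P450 reductase, PCI_2800, had 78.2 and 71.7 FPKM in CK2D, 123 and 124 in TL2D, and 105 and 120.3 in TL3D. Leaf libraries all lay above plate libraries. It was 1.65-fold higher at day 2 (log2 change 0.71 ± 0.09, adjusted p = 0.00521) and 1.50-fold at day 3 (adjusted p = 0.00222), with an adjusted p at day 2 of up to 0.0617 without a CK2D replicate. A second gene of that name, PCI_4667, was scarce, with 0.376 and 0.600 FPKM in CK2D, 2.89 and 1.61 in TL2D, and 1.22 and 1.34 in TL3D (adjusted p = 0.0231 at day 2, up to 0.128 without either CK2D replicate). The third, PCI_7631, stayed at or below 0.761 FPKM and was not tested. Cytochrome b5 PCI_1872, a small haem protein that can supply an electron to P450 enzymes, had 172 and 197, 299 and 304, and 244 and 237 (1.63-fold higher at day 2, adjusted p = 0.00746, and up to 0.0724 without either CK2D replicate). Cytochrome b5 PCI_2586 had 195 to 265 FPKM in all libraries and was not called.

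Of the 3 fused genes, PCI_7309 was the most abundant, at 56.2 and 48.4 FPKM in CK2D, 156 and 129.8 in TL2D, and 158 and 159 in TL3D. It was about as high on both leaf days and 2.73-fold above plates at day 2 (log2 change 1.43 ± 0.14, adjusted p = 0.00283). PCI_8375, named *ascE*, went the other way, at 23.4 and 29.1, 12.9 and 11.4, and 13.9 and 12.6 (2.16-fold lower at day 2, adjusted p = 0.00714, or 0.0672 without CK2D replicate 2). PCI_0831 had 17.5 and 19.9, 18.4 and 70.0, and 19.98 and 21.8, so 1 TL2D library stood apart from the other 5, and the gene was not called (adjusted p = 0.271). The adrenodoxin homolog PCI_7860, a mitochondrial electron carrier, was 1.88-fold higher at day 2 (adjusted p = 0.00837, up to 0.0705 without either CK2D replicate), and its oxidoreductase PCI_1159 had 18.0 to 22.9 FPKM with no call. Among the 7 cytochrome b5 reductases, PCI_7308, PCI_4216 and PCI_8716 were called higher at day 2, by 7.60-fold, 1.47-fold and 1.38-fold, the latter pair not without either CK2D replicate (adjusted p up to 0.114).

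Haem is the cofactor of every P450 enzyme. In TL2D against CK2D 24.8% of all tested genes were called higher and 29.4% lower. Of the 10 tested genes found by name terms for haem synthesis, 5 were higher and 0 lower. They included 5-aminolevulinate synthase PCI_7702, the first step, at 37.0 and 39.0 FPKM in CK2D, 58.8 and 54.1 in TL2D, and 47.7 and 46.9 in TL3D (1.49-fold at day 2, adjusted p = 0.0109, up to 0.0968 without either CK2D replicate). Ferrochelatase PCI_0205, the last step, had 48.7 to 56.7 FPKM and was not called. The name terms also took in PCI_0770, a uroporphyrinogen-III C-methyltransferase, whose product is not the haem of P450 enzymes. It is counted among the 10 and had 22.0 and 19.7 FPKM in CK2D, 58.4 and 48.6 in TL2D, and 43.5 and 41.1 in TL3D. Its log2 change against CK2D was the largest on the list, 1.31 in TL2D and 0.99 in TL3D. The counts and the median given here take it in, so they do not stand for P450 haem alone. The median log2 change of the list was 0.40 in TL2D against CK2D, beside −0.10 for all tested genes. In TL3D against CK2D 6 of 10 were higher and 0 lower, beside 28.1% and 30.2% of all tested genes. Between TL3D and TL2D, where limma called 10.1% of all tested genes, it called 0 of the 10 on the list. None was lower at an unadjusted p under 0.05 against CK2D, and 2 were lower and 0 higher between the leaf days, where the authors' deposited FDR called 0.

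The sterol demethylases are P450 enzymes by function, but their names lack the term and the rule left them out. PCI_1876, named eburicol 14-alpha-demethylase, had 2.11 and 2.35 FPKM in CK2D, 229.7 and 199 in TL2D, and 243 and 216 in TL3D. PCI_6001, named sterol 14-alpha demethylase, had 73.3 and 66.6, 120.2 and 119, and 100.3 and 115. Both were higher in every leaf library than on plates. PCI_1876 was 96.1-fold higher at day 2 (log2 change 6.06 ± 0.12, adjusted p = 9.78e-05) and PCI_6001 1.71-fold (0.77 ± 0.09, adjusted p = 0.00468, or 0.0561 without CK2D replicate 2). The member PCI_1086, which carries the family name of these enzymes, was lower on leaves. Counts of reads shared between near-identical copies cannot be checked in FPKM values, so the split between the 3 genes is uncertain if their sequences are close.

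Other gene groups around natural products were counted in the same way. Of 24 tested backbone enzymes, the polyketide synthases, peptide synthetases and terpene enzymes that build the scaffolds P450 enzymes modify, 3 were higher and 16 lower in TL2D than in CK2D, with a median log2 change of −0.83. Their counts were 3 and 3 between TL3D and TL2D, and 3 and 15 between TL3D and CK2D. Other monooxygenases gave 21 higher and 25 lower of 72, 3 and 5 of 71, and 28 and 28 of 78 in the same order. Glutathione S-transferases, which often act on oxidised compounds, gave 1 and 8, 1 and 0 (3 and 5 at an unadjusted p under 0.05, 2 and 6 by the authors' deposited FDR), and 3 and 8 of 15. Among all tested genes 24.8% were higher and 29.4% lower in TL2D than in CK2D. Other monooxygenases lay near these shares, at 29.2% and 34.7%. Backbone enzymes gave 12.5% and 66.7%, and glutathione S-transferases 6.67% and 53.3%. The shares of all tested genes were 6.77% and 3.30% between TL3D and TL2D, and 28.1% and 30.2% between TL3D and CK2D. These lists are described by their counts, and no difference between them and the P450 set was tested.

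Fungal biosynthetic genes often lie side by side, and gene numbers were used to look at neighbours. Numbers are those of the tables, and whether they follow the order of the genome was not checked, since genome positions were not used here. Within 5 numbers of a backbone enzyme lay 5 of the 68 members (7.35%, beside 3.45% of all genes), and within 5 numbers of another member lay 13 (19.1%, beside 6.70% of all genes). These shares are descriptions with no test.

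Next to the falling run PCI_1024 to PCI_1026, PCI_1023, a Delta(24(24(1)))-sterol reductase of ergosterol synthesis, was 1.49-fold lower at day 2 (adjusted p = 0.0133, up to 0.104 without either CK2D replicate). On the other side PCI_1027, a low-affinity glucose transporter, had 155 to 248 FPKM and was not called. Its mean was 200.8 FPKM in CK2D and 225.9 in TL2D. The oxidoreductase PCI_1028 had 40.9 and 50.6 FPKM in CK2D, 35.7 and 31.3 in TL2D, and 22.9 and 22.9 in TL3D. Its groups did not overlap and stood in the same order as in the run. Further out, PCI_1020 (an integral membrane protein), PCI_1022 (a nucleolar GTP-binding protein) and PCI_1030 (an MFS-type efflux pump) were higher on leaves at day 2, by 6.33-fold, 3.05-fold and 3.94-fold, and PCI_1021 by 1.29-fold. Apart from PCI_1022, these calls were lost without either CK2D replicate (adjusted p up to 0.173).

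Both PCI_8438 (*gsfF*) and PCI_5820 (*pkfB*) sat beside a gene for a PTH11-type membrane protein, a family of receptor-like proteins known from the rice blast fungus. PCI_8437 had 0.0606 and 0.0094 FPKM in CK2D, 5.09 and 6.13 in TL2D, and 1.98 and 3.04 in TL3D. It was off on plates and on in leaves like its neighbour *gsfF*, with a log2 change of 2.67 ± 0.17 at day 2 (adjusted p = 0.00123). The gene on the other side, PCI_8439, encoding the shikimate pathway AROM polypeptide, was 1.47-fold higher (adjusted p = 0.0126, up to 0.102 without either CK2D replicate). PCI_5819 had 16.0 and 13.0 FPKM in CK2D, 103 and 81.8 in TL2D, and 26.2 and 31.3 in TL3D. It peaked at day 2 as *pkfB* did, rising 6.35-fold (log2 change 2.58 ± 0.17, adjusted p = 0.00124) and then going down by −1.64 ± 0.16 on the log2 scale (adjusted p = 0.0163, up to 0.284 without either TL3D replicate). Of the other genes within 5 numbers of *pkfB*, PCI_5818, PCI_5821, PCI_5823 and PCI_5824 were higher at day 2 by 1.54-fold to 2.06-fold, and PCI_5815 and PCI_5822 lower by 1.44-fold and 1.46-fold. Of these 6 calls, that of PCI_5821 remained without each single library and the others were lost without either CK2D replicate (adjusted p up to 0.173).

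The gene *alnD* PCI_7307 was followed by PCI_7308, an NADH-cytochrome b5 reductase, and by the fused gene PCI_7309 described above. PCI_7308 had 0.856 and 1.39 FPKM in CK2D, 8.35 and 8.74 in TL2D, and 2.84 and 2.24 in TL3D. It followed *alnD* in peaking at day 2, with a log2 change of 2.18 ± 0.18 (adjusted p = 0.00204) and then −1.44 ± 0.16 (adjusted p = 0.0182, up to 0.284 without either TL3D replicate). PCI_7309 was not called between the leaf days. The gene before, PCI_7306, had at most 0.506 FPKM, and PCI_7304 (a sucrose/H+ symporter) and PCI_7305 were 12.9-fold and 8.26-fold lower at day 2 (the latter with an adjusted p of up to 0.0627 without either CK2D replicate). A second pair of the same kind, *alnD* PCI_7875 and the b5 reductase PCI_7876, was barely expressed, the reductase at 0.785 to 1.63 FPKM. Each scarce reductase also had a P450 next to it: PCI_4667 beside *cicH* PCI_4668, and PCI_7631 beside PCI_7632, both P450 genes with at most 0.806 FPKM.

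**Figure D4:**
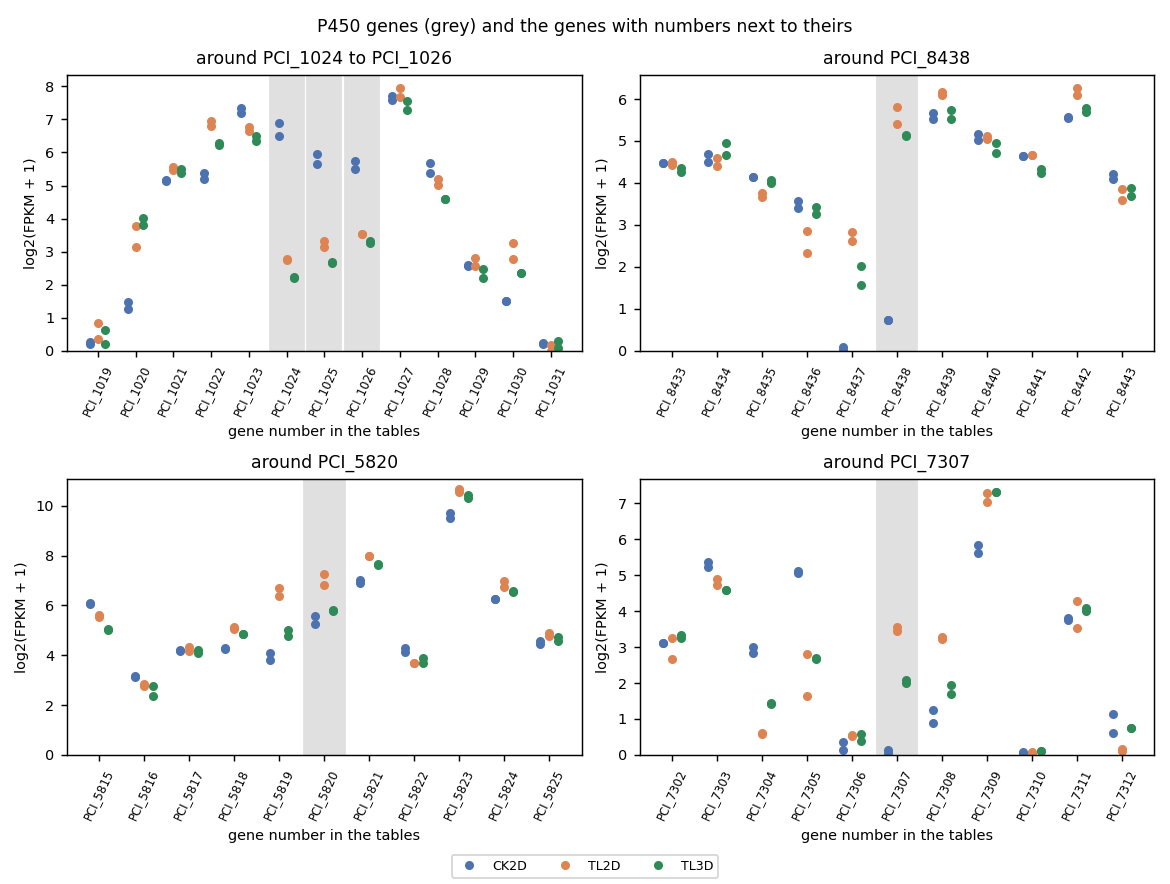
log2(FPKM + 1) in each library (points, coloured by group) for genes with numbers around 4 loci of P450 genes (grey bands). The 3 P450 genes PCI_1024 to PCI_1026 were high in CK2D only, PCI_8437 and PCI_8438 rose together on leaves, PCI_5819 and PCI_5820 and likewise PCI_7307 and PCI_7308 were highest in TL2D.

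*phqM* PCI_8778 lay among genes with natural product names. The peptide synthetase PCI_8776 (*fmqA*), with 24.7 and 22.9 FPKM in CK2D, 17.2 and 16.3 in TL2D, and 13.9 and 17.0 in TL3D, was 1.42-fold lower at day 2 (adjusted p = 0.0202, up to 0.160 without either CK2D replicate). PCI_8777 (*notB'*, an oxidase) and PCI_8779 (*phqI*, a prenyltransferase) were not called at day 2 and were lower at day 3 than at day 2, 1.96-fold (adjusted p = 0.023) and 1.47-fold (adjusted p = 0.0396). PCI_8782 and PCI_8783 behaved likewise, 1.93-fold and 1.99-fold lower. None of these 4 day 3 calls held without either TL3D replicate, with adjusted p values up to 0.352. All 8 genes from PCI_8776 to PCI_8783, a stretch chosen after its values were seen, were lower in TL3D than in CK2D, between 1.38-fold and 2.55-fold. Just before it, PCI_8773 and PCI_8775 had higher means in TL3D (0.689 and 168 FPKM) than in CK2D (0.132 and 156). PCI_8774 had a lower one (19.4 against 22.5). Among all tested genes 30.2% were called lower in TL3D than in CK2D.

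Around *adrA* PCI_7156 the next gene, PCI_7157 (biotin synthase), was 1.79-fold lower at day 2 (adjusted p = 0.00955), and PCI_7159 (L-pipecolate oxidase), PCI_7160 (isopenicillin N epimerase component 1) and PCI_7161 (a general alpha-glucoside permease) were 4.06-fold, 2.86-fold and 14.3-fold lower. The calls of PCI_7157 and PCI_7160 were lost without either CK2D replicate (adjusted p up to 0.0823). *ppsD* PCI_7152, only 4 numbers away, rose. Near *orf2* PCI_7413 the peptide synthetase PCI_7415 was 2.03-fold lower at day 2, much like the 2.37-fold of *orf2* (adjusted p = 0.0084, up to 0.0756 without either CK2D replicate). *BOA3* PCI_4443 next to a hybrid synthetase, PCI_4442, and *lnbC* PCI_0251 near PCI_0253 were near 0, with at most 0.875 FPKM for any of these 4 genes.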

How the data were processed

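Total RNA of mycelium was sequenced in 6 libraries. Per the file headers, the authors deposited FPKM for each replicate of 9385 genes, with, for TL2D against CK2D and TL3D against TL2D, a fold change that is a ratio of mean FPKM, its log2, and an FDR, a p-value adjusted over genes. The submitters' processing notes name Cufflinks, without a version. Aligner, genome build, annotation and FDR test were not given in the sources used here. TL2D values were identical in both tables for 9385 of 9385 genes, so TL3D was also compared with CK2D. Whole reads could not be recovered from the low values, so no count-based test was run and the depth is unknown.

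Analysis was done in R 4.3.3 with limma 3.58.1. In each pair of groups, genes reaching 1 FPKM in 2 or more of the 4 libraries were tested on log2(FPKM + 1) with eBayes and a trend, on 2 residual degrees of freedom, with Benjamini-Hochberg adjustment over all tested genes and a threshold of 0.05. A pseudocount of 1 understates the change of low genes. Folds are ratios of mean FPKM. These steps were tested on simulated data. The fits had no replicate block; one was tried as an alternative.

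The members and lists were chosen with earlier results of these data known. Lists by product name were P450 redox partners, sterol demethylases and desaturases, haem synthesis, natural product backbone enzymes, other monooxygenases, glutathione S-transferases, asexual spore formation and plant photosynthesis. Named were the 4 members given as markers, members with a group mean of at least 20 FPKM, redox partners and sterol demethylases. Members with a pathway or gene symbol in their name were named as well. So were up to 10 called members with the largest change in each direction per comparison. Neighbours were looked at within 5 gene numbers of the 4 markers or, if backbone enzymes, of named members. Only a part of the neighbours of the markers is given in the text. Other neighbours (around *alnD*, *phqM* and *orf2*) and the haem genes given by number were chosen after their values were seen. None of the gene numbers matched the 11657 genes of the RefSeq table, so no sequence or position is given.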

Additional observations from a re-analysis of the deposited data

How the results depend on the processing

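No called change of a named gene changed sign under the alternatives run, but the balance of member counts did turn. In TL2D against CK2D it went from 14 higher and 17 lower to 7 and 5 without CK2D replicate 1, 10 and 4 without CK2D replicate 2, and 10 and 9 with a 2-fold limit, and in TL3D against TL2D from 0 and 3 to 12 and 9 without TL2D replicate 1. With 2 replicates per group and 1 residual degree of freedom once a library is left out, the number of calls was the weak point. Such a fit takes its spread from the pair that stays whole, and that pair was widest in TL2D. Its counts therefore do not show how far the calls rest on the library left out. Leaving out 1 library gave 7 to 16 members higher and 4 to 17 lower in TL2D than in CK2D (main 14 and 17), 0 to 12 and 0 to 10 in TL3D against TL2D (main 0 and 3), and 11 to 18 and 15 to 18 in TL3D against CK2D (main 17 and 19). Requiring a 2-fold change lowered the counts to 9 lower in TL2D than in CK2D, and to 11 higher and 9 lower in TL3D than in CK2D. Between TL3D and TL2D, no filter gave 1 higher, a fit over all 6 libraries 2 higher and 6 lower, and the authors' deposited FDR 3 higher and 7 lower. A pseudocount of 0.1, upper-quartile scaling and median log ratio scaling kept each count within 1.5 times. The scalings moved the median of all genes in TL2D against CK2D from −0.10 to −0.09 and −0.03, and in TL3D against CK2D from −0.04 to −0.02 and 0.01.

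Whether replicate numbers mark paired samples was not settled. Deviations of same-numbered samples correlated at −0.08, 0.17 and −0.25 in the 3 comparisons over 8257 genes. With a single replicate difference per group, these values cannot decide it. With the replicate block the counts were 11 higher and 13 lower, 0 and 3, and 17 and 17. A crossed pairing for TL3D against CK2D, added after seeing the data, gave 17 and 19.

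Read depth is unknown, and the 19 members that were never tested reached at most 1.30 FPKM.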
